A study of Saccharomyces cerevisiae with 10 samples.

Results

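The lysine synthesis genes described here are LYS1, LYS2, LYS4, LYS9, LYS12, LYS14, LYS20 and LYS21 of budding yeast. They were chosen by name through the platform's annotation, which gave 1 probe set for each, so 8 of the 5716 probe sets in the table. RNA of 4 strains had been hybridised to 10 one-colour arrays (Affymetrix). The wild type was W303-1A (WT, 3 arrays). The mutants were SChY58a, in which kanMX4 replaces HPR1 (hpr1del, 3 arrays), DLY23, in which HIS3 replaces SUB2 (sub2del, 2 arrays), and RK2-6C, in which KanMX4 replaces THO2 (tho2del, 2 arrays). Every strain, WT included, was of mating type MATa and carried ura3-1, trp1-1, ade2-1 and can1-100 together with his3-11,15 and a mutant allele of LEU2, and no lysine marker is listed for any of them. Each deletion is represented by 1 strain. Cells were in mid-log phase in liquid YPAD, a rich medium with adenine. The arrays of a strain are called biological replicates, and the labels leave unsaid if cultures of different strains shared a day, so each p rests on the variation among the arrays at hand.

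Fungi make lysine through 2-aminoadipate, in a route that begins in the mitochondrion with 2-oxoglutarate and acetyl-CoA and ends in the cytosol. Homocitrate synthase, which lysine inhibits, opens the route, and Lys14 is a transcription activator of its genes that responds to an intermediate of the same route. Gcn4, the general activator of amino acid synthesis genes, acts on many of them as well. Hpr1, Tho2 and Sub2 belong to THO/TREX, a complex that couples transcription elongation to export of mRNA from the nucleus, and the series asked how expression differs from wild type in strains without these subunits.

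Values are intensities in the authors' arbitrary units, and changes are differences of log2(intensity + 16) with their standard error (SE). A change was called where its limma p, adjusted by the Benjamini-Hochberg method over all probe sets tested, was under 0.05. Array medians lay between 1346 and 1541. The deleted genes were low where the labels place the deletions. HPR1 read 202 ± 12.3 (SD) on the 3 hpr1del arrays and 573 ± 56.4 on the 3 WT arrays, THO2 was at 252 ± 98.0 (n = 2) in tho2del and 2467 ± 97.5 in WT, and SUB2 was at 79.2 ± 34.8 (n = 2) in sub2del and 12371 ± 365 in WT. THO2 was also called lower than WT in hpr1del (1382 ± 64.9, adjusted p = 0.004) and in sub2del (1186 ± 99.6, adjusted p = 0.00125), though above its level in tho2del. Some cells of the table are empty, for a reason not given in the sources used here, and they bear directly on these genes. WT replicate 2 had no value for 6 of the 8 genes (75%), against 7.24% of all probe sets on that array, and WT replicate 3 had none for 2 of 8 (25%), against 0.665% of all. WT replicate 1 and the 7 mutant arrays had a value for every one of the 8 genes. LYS12 and LYS14 therefore had 3 WT values, LYS2, LYS4, LYS9 and LYS21 had 2, and LYS1 and LYS20 had only that of WT replicate 1. A strain needed at least 2 values to be compared, so 6 of the 8 genes were tested against WT and all 8 between mutants.

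**Figure D1:**
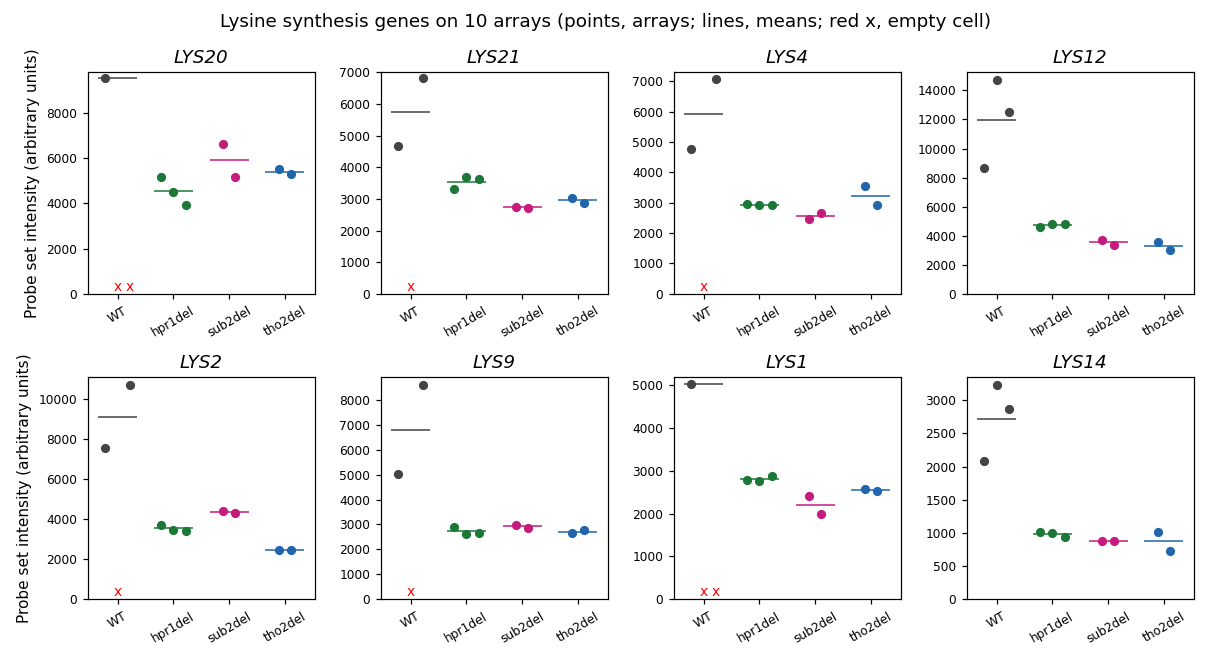
Intensity (arbitrary units, axes from 0) of the 8 lysine synthesis genes on each array, by strain. Points are arrays, lines are strain means and a red x marks an empty cell. For each gene every mutant array lies below every WT array that has a value.

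All 6 tested genes fell in each of the mutants. Over them the log2 change had a median of -1.28 (2.43-fold lower) for hpr1del, -1.17 (2.25-fold) for sub2del and -1.44 (2.72-fold) for tho2del. Over all probe sets tested the medians were -0.01, -0.17 and -0.06. A fall was called for 22.8% of all probe sets tested in hpr1del, 40.4% in sub2del and 32.6% in tho2del, and a rise for 22.8%, 20.8% and 24.4%. For all 8 genes, the 2 with a single WT value included, every mutant value lay below every WT value. The same held for 29.1% of all probe sets tested in hpr1del, 45.9% in sub2del and 39.2% in tho2del. These shares leave out probe sets with a single WT value, such as LYS1 and LYS20. Where WT cells are empty, as for all of these genes but LYS12 and LYS14, such separation is easier to reach. These comparisons share the WT arrays, so they are not independent of each other, and in bulk RNA fewer transcripts per cell and fewer cells with the transcript cannot be told apart.

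LYS14 encodes the pathway's own activator. It read 2081, 3226 and 2867 in WT replicates 1, 2 and 3. The hpr1del arrays read 1011, 1004 and 943, the sub2del arrays 879 and 874, and the tho2del arrays 1015 and 733. The highest mutant value was thus well under the lowest WT value. The fall was 2.69-fold in hpr1del (log2 -1.43 ± 0.17, adjusted p = 0.000272), 3.02-fold in sub2del (-1.60 ± 0.19, adjusted p = 0.000117) and 3.07-fold in tho2del (-1.62 ± 0.19, adjusted p = 0.000137). No difference between mutants passed the test for LYS14, and the tho2del arrays spanned those of sub2del.

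LYS20 and LYS21 encode the isoforms of homocitrate synthase, the committed step. They are paralogs, so how far their probe sets bind each other's transcript is uncertain. LYS21 read 4684 and 6813 in WT replicates 1 and 3. It read 3301, 3699 and 3619 in hpr1del, 2753 and 2714 in sub2del, with 3043 and 2864 in tho2del. No mutant array reached the WT arrays, and hpr1del lay closest to them. LYS21 fell 1.60-fold in hpr1del (log2 -0.67 ± 0.15, adjusted p = 0.00778), the smallest of the 6 tested changes there, 2.06-fold in sub2del (-1.04 ± 0.16, adjusted p = 0.000904) and 1.91-fold in tho2del (-0.93 ± 0.16, adjusted p = 0.00187).

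LYS20 had 1 WT value, 9531. The hpr1del arrays read 5174, 4495 and 3933, the sub2del arrays 6629 and 5165 and the tho2del arrays 5499 and 5308. For this gene hpr1del had the lowest mean and sub2del the highest of the mutants, while for LYS21 the order was the other way round. The spread of LYS20 was wide in hpr1del (4534 ± 621, n = 3) and sub2del (5897 ± 1035, n = 2). Against WT replicate 1 the levels were 2.11-fold lower in hpr1del, 1.63-fold in sub2del and 1.76-fold in tho2del, and the other WT cells are empty.

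LYS4 encodes homoaconitase, which converts homocitrate to homoisocitrate. It read 4778 and 7074 in WT replicates 1 and 3, 2967, 2908 and 2907 in hpr1del, 2454 and 2655 in sub2del, with 3536 and 2921 in tho2del. Arrays of hpr1del were almost identical, whereas the tho2del arrays differed. The fall was 1.98-fold in hpr1del (log2 -0.99 ± 0.16, adjusted p = 0.00209), 2.27-fold in sub2del (-1.18 ± 0.18, adjusted p = 0.000761) and 1.81-fold in tho2del (-0.85 ± 0.18, adjusted p = 0.00454), in tho2del the smallest of the 6.

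LYS12 encodes homoisocitrate dehydrogenase, which yields 2-oxoadipate, and was filled on all 10 arrays. It read 8653, 14693 and 12534 in WT replicates 1, 2 and 3. The hpr1del arrays read 4621, 4777 and 4834, the sub2del arrays 3673 and 3395, and the tho2del arrays 3541 and 3035. WT replicate 1 was the lowest WT array, as for LYS14, and still lay far above the mutants. LYS12 fell 2.46-fold in hpr1del (log2 -1.30 ± 0.17, adjusted p = 0.000480), 3.30-fold in sub2del (-1.72 ± 0.19, adjusted p = 8.65e-05), the largest of the 6 there, and 3.55-fold in tho2del (-1.83 ± 0.19, adjusted p = 8.07e-05).

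LYS2 encodes 2-aminoadipate reductase, a cytosolic step. It read 7544 and 10695 in WT replicates 1 and 3. It read 3715, 3465 and 3423 in hpr1del, 4428 and 4302 in sub2del, with 2475 and 2447 in tho2del. The strains did not overlap, with WT highest, then sub2del, hpr1del and tho2del. The fall was 2.54-fold in hpr1del (log2 -1.34 ± 0.14, adjusted p = 0.000237) and 2.05-fold in sub2del (-1.04 ± 0.15, adjusted p = 0.000617), in sub2del the smallest of the 6. In tho2del it was 3.63-fold (-1.86 ± 0.15, adjusted p = 4.27e-05), the largest of the 6.

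LYS9 and LYS1 encode the saccharopine dehydrogenases, of which Lys9 makes saccharopine and Lys1 releases lysine from it. LYS9 read 5008 and 8623 in WT replicates 1 and 3. It read 2894, 2633 and 2657 in hpr1del, 2996 and 2874 in sub2del, with 2649 and 2781 in tho2del. No difference between mutants passed the test, and WT replicate 3 was 1.72 times replicate 1. LYS9 fell 2.40-fold in hpr1del (log2 -1.26 ± 0.20, adjusted p = 0.00167), 2.23-fold in sub2del (-1.16 ± 0.22, adjusted p = 0.00234) and 2.41-fold in tho2del (-1.27 ± 0.22, adjusted p = 0.00173).

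LYS1 had 1 WT value, 5039. It read 2785, 2753 and 2877 in hpr1del, 2416 and 1986 in sub2del, with 2567 and 2528 in tho2del. All 7 mutant values lay between 1986 and 2877, below the WT value. Against that array the levels were 1.79-fold lower in hpr1del, 2.29-fold in sub2del and 1.97-fold in tho2del. How far WT arrays vary in LYS1 and LYS20 is not measured here, so these are values with no test.

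**Figure D2:**
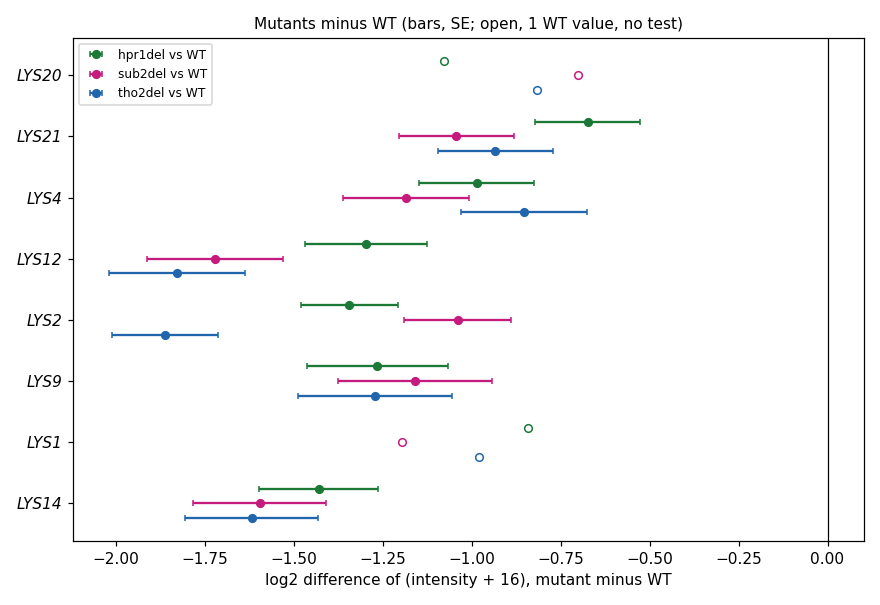
Log2 difference of (intensity + 16), mutant minus WT, for the 8 genes, with filled points for tested genes (bars, SE) and open points for LYS20 and LYS1, which had 1 WT value and no test. All points lie left of 0, from -0.67 for LYS21 in hpr1del to -1.86 for LYS2 in tho2del among tested genes.

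The size of these changes depended on which WT arrays had values. WT replicate 3 exceeded WT replicate 1 in all 6 genes filled on both, by a median of 0.54 on the log2 scale, against 0.02 over all 5626 probe sets filled on both. The ratio of replicate 3 to replicate 1 ran from 1.38 for LYS14 to 1.72 for LYS9. WT replicate 2 was 1.70 times replicate 1 for LYS12 and 1.55 times for LYS14. The coefficient of variation had a median of 25.9% in WT (21.5% to 37.5% over the 6 genes with at least 2 values). Over the 8 genes its median was 4.16% in hpr1del (1.17% to 13.7%), 4.24% in sub2del (0.462% to 17.6%) and 3.85% in tho2del (0.819% to 22.8%, the highest being LYS14). Over probe sets filled on every array of a strain, the mean log2 SD was 0.211 in WT and 0.074 to 0.103 in the mutants. The SE and p of each change pool the spread of all strains. Against WT they therefore understate the variation of the WT arrays, where LYS9 had a log2 SD of 0.553 (n = 2). Set against WT replicate 1 alone, the WT array with a value for all 8 and the lowest one for these genes, the median over the 8 was -0.87 in hpr1del, -0.84 in sub2del and -0.93 in tho2del. Over all probe sets the medians against that array were -0.01, -0.13 and -0.04. The highest mutant array then stood at 32.8% of WT replicate 1 (LYS2 in tho2del) to 79.0% (LYS21 in hpr1del).

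Empty cells also split the arrays in a way that touches these comparisons. WT replicate 2, sub2del and tho2del arrays had between 414 and 811 empty cells, and the other WT and hpr1del arrays between 7 and 66. The WT values of LYS2, LYS4, LYS9 and LYS21 came from arrays with few empty cells only, so for these genes the number of empty cells and the loss of SUB2 or THO2 cannot be told apart. For LYS12 and LYS14, sub2del and tho2del could be set against WT replicate 2, of the same kind. The medians over both genes were then -1.96 and -2.02 for sub2del and tho2del. With 1 WT array on that side these are given as values only. Between hpr1del and WT the arrays with few empty cells held both strains, and the median over the 6 tested genes was -1.20 there.

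Between mutants the median log2 difference over the 8 genes was -0.16 for tho2del minus hpr1del, -0.18 for sub2del minus hpr1del and 0.065 for sub2del minus tho2del, against -0.04, -0.17 and -0.14 over all probe sets tested. A call in either direction was made for 1 of 8 genes in tho2del against hpr1del, where 37.6% of all probe sets tested were called. It was made for 1 of 8 in sub2del against hpr1del, against 51.6% of all, and for 1 of 8 in sub2del against tho2del, against 20.8%. LYS2 was the gene called in the comparisons with tho2del. It was higher in sub2del than in tho2del by 0.82 ± 0.15 on the log2 scale (95% interval 0.47 to 1.17, adjusted p = 0.00910), and lower in tho2del than in hpr1del by a log2 difference of -0.52 ± 0.14 (interval -0.84 to -0.20, adjusted p = 0.0212). Without tho2del replicate 2 the former had an adjusted p = 0.0593. The latter missed the threshold without any single one of the arrays compared, with adjusted p from 0.0522 to 0.101.

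LYS1 was lower in sub2del than in hpr1del (log2 -0.35 ± 0.10, interval -0.59 to -0.12, adjusted p = 0.0225). This call was lost without hpr1del replicate 1, 2 or 3 (adjusted p = 0.0586, 0.0578 and 0.0720) and without sub2del replicate 2 (log2 -0.21, adjusted p = 0.130). LYS12 was lower in tho2del than in hpr1del by a log2 difference of -0.53 ± 0.19, which did not pass (adjusted p = 0.0572) although the arrays did not overlap, and it passed after quantile normalization (-0.61, adjusted p = 0.0290). With the kind of array by empty cells as a block its difference was -1.03. No mutant had arrays of both kinds, so that block was set only by WT replicate 2 against the other WT arrays. The larger value therefore carries the high LYS12 reading of WT replicate 2 and adds nothing on the mutants themselves. For LYS20 the difference of sub2del from hpr1del was 0.38 ± 0.15 (adjusted p = 0.0756), and for LYS21 it was -0.37 ± 0.15 (adjusted p = 0.0696), of opposite sign and neither past the threshold. With array weights both passed (0.42, adjusted p = 0.0337, and -0.41, adjusted p = 0.00285). LYS20 also passed with array medians subtracted (0.455, adjusted p = 0.0474). For LYS9 the difference of tho2del from hpr1del was -0.01 (interval -0.47 to 0.46), so a difference between them within that interval could not be told from none. The pooled spread includes the more variable WT arrays. With only the arrays compared, 6 of the 8 genes passed in sub2del against hpr1del and 3 in tho2del against hpr1del, where 68.6% and 59.6% of all probe sets tested passed under the same setting.

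**Figure D3:**
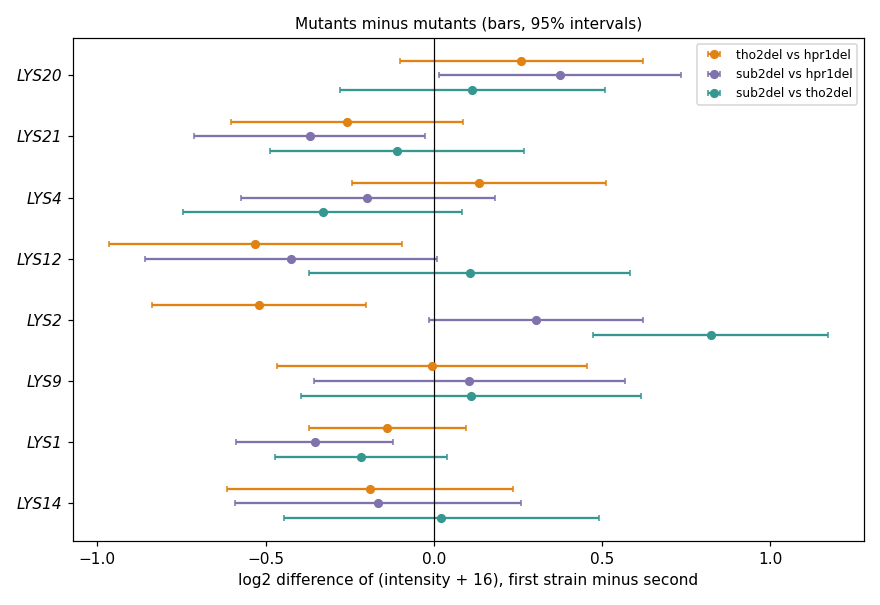
Log2 differences of (intensity + 16) between mutants for the 8 genes, each the strain named first minus the strain named second, with 95% intervals. LYS2 stands furthest from 0, at 0.82 for sub2del against tho2del, and most other intervals include 0.

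Other genes around the pathway were taken from a fixed list of 19, of which 18 had an annotated probe set. In hpr1del 9 of 18 tested fell and 1 rose (median -0.30), in sub2del 13 of 16 fell and 0 rose (-0.55), and in tho2del 10 of 18 fell and 0 rose (-0.58). Of all probe sets tested, 22.8%, 40.4% and 32.6% fell in these strains. LYS5, whose product attaches the phosphopantetheine group that Lys2 needs, fell in all 3 mutants. It read 1279, 1577 and 1420 in WT, 574, 553 and 635 in hpr1del, 509 and 468 in sub2del, with 468 and 602 in tho2del. The log2 changes were -1.25 ± 0.11 (adjusted p = 8.40e-05), -1.51 ± 0.13 (adjusted p = 2.22e-05) and -1.39 ± 0.13 (adjusted p = 4.26e-05) in hpr1del, sub2del and tho2del.

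ARO8, an aminotransferase that can make 2-aminoadipate, fell by 0.67 ± 0.09 in hpr1del, 1.14 ± 0.11 in sub2del and 0.96 ± 0.10 in tho2del on the log2 scale (adjusted p = 0.000679, 3.33e-05 and 0.000106). ODC2, a mitochondrial carrier of 2-oxoadipate and 2-oxoglutarate, fell by 0.73 ± 0.14, 1.35 ± 0.16 and 0.75 ± 0.16 in the same order (adjusted p = 0.00352, 0.000119 and 0.00377). IDP1, the mitochondrial NADP-dependent isocitrate dehydrogenase, fell by 0.61 ± 0.14, 0.74 ± 0.15 and 0.99 ± 0.15 (adjusted p = 0.00632, 0.00266 and 0.000636). Of the users of lysine, KRS1, the cytosolic lysyl-tRNA synthetase, fell by 0.43 ± 0.08, 0.67 ± 0.09 and 0.55 ± 0.09 (adjusted p = 0.00248, 0.000220 and 0.000848). Its mitochondrial counterpart MSK1 fell by 0.47 ± 0.15, 0.91 ± 0.17 and 0.68 ± 0.17 (adjusted p = 0.0326, 0.00161 and 0.00840), of which the call in hpr1del was lost without any single hpr1del array (adjusted p = 0.0782 to 0.0875) and after quantile normalization (0.0557). Without WT replicate 1 the MSK1 change in hpr1del was -0.26 (adjusted p = 0.00411) and that in tho2del -0.47 (adjusted p = 0.000220). In tho2del the call was lost with only the arrays compared (adjusted p = 0.0560) and with the empty-cell block (0.0870). These 5 genes fell in each strain, with smaller values than LYS5.

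ODC1, the paralog of ODC2, read 786, 924 and 663 in WT, 1060, 1012 and 972 in hpr1del, 630 and 469 in sub2del, with 832 and 796 in tho2del. It fell in sub2del (log2 -0.51 ± 0.15, adjusted p = 0.0172), with -0.31 when sub2del replicate 2 was left out. That call was lost after quantile normalization (adjusted p = 0.0571), with array medians subtracted (0.0542) and with only the arrays compared (0.0803). In hpr1del all arrays lay above WT, with a difference of 0.36 ± 0.14 that did not pass (adjusted p = 0.0568). It passed in 6 of 19 alternatives, among them quantile normalization (0.408, adjusted p = 0.033) and leaving out WT replicate 2 (0.48, adjusted p = 0.0184). In tho2del the ODC1 difference was 0.05 ± 0.15 (adjusted p = 0.789). The next genes encode enzymes of the citric acid cycle, which supplies 2-oxoglutarate. IDH2, a subunit of the NAD-dependent isocitrate dehydrogenase, fell by 0.58 ± 0.09 in sub2del and 0.79 ± 0.09 in tho2del (adjusted p = 0.000605 and 0.000129), and its difference in hpr1del was -0.01 (adjusted p = 0.934). The other subunit, IDH1, fell by 0.66 ± 0.16 and 0.62 ± 0.16 in sub2del and tho2del (adjusted p = 0.00742 and 0.0110; 0.0599 without sub2del replicate 2 and 0.0713 without tho2del replicate 1), and in hpr1del it was at -0.08 (adjusted p = 0.685).

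ACO1, the aconitase, fell by 0.76 ± 0.08 in tho2del (adjusted p = 8.48e-05) and by 0.28 ± 0.08 in sub2del (adjusted p = 0.0148), where it was -0.18 without sub2del replicate 2. The call in sub2del was lost with array medians subtracted (adjusted p = 0.168) and with only the arrays compared (0.0984). The ACO1 difference in hpr1del was 0.16 ± 0.07 (adjusted p = 0.0983). It passed in 6 of 19 alternatives, among them quantile normalization (0.244, adjusted p = 0.0153) and leaving out WT replicate 2 (adjusted p = 0.0483). CIT1, the mitochondrial citrate synthase, was called in none of the mutants, with -0.06, -0.32 and -0.42 in hpr1del, sub2del and tho2del (adjusted p = 0.794, 0.177 and 0.0906). It read 8927 in WT replicate 1 against 5666 and 5280 in the other WT arrays. Without that array its difference was 0.17 in hpr1del (adjusted p = 0.0366) and -0.19 in tho2del (adjusted p = 0.0357), and without WT replicate 3 it was -0.56 in tho2del (adjusted p = 0.0324).

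The regulators did not move as a group. GCN4 mRNA read 18758 in WT, 18252 in hpr1del, 17197 in sub2del and 18708 in tho2del, with log2 differences of -0.03, -0.12 and 0.00 (adjusted p = 0.756, 0.275 and 0.999). Gcn4 is known to be controlled in translation, which an array of mRNA does not measure. Without WT replicate 1 the difference in sub2del was -0.20 (adjusted p = 0.0213). RTG2, a sensor of the retrograde pathway, fell by 0.36 ± 0.08 in sub2del (adjusted p = 0.00564), and its differences were 0.16 in hpr1del (adjusted p = 0.113; 0.0458 without WT replicate 2) and -0.09 in tho2del (adjusted p = 0.363). RTG1 was at -0.17 in hpr1del (adjusted p = 0.142; 0.0336 without WT replicate 1) and -0.09 in tho2del (adjusted p = 0.462), and like RTG3 was empty on both sub2del arrays. RTG3, a subunit of the retrograde activator, which raises 2-oxoglutarate supply when mitochondria fail, fell by 0.75 ± 0.12 in hpr1del and 0.66 ± 0.13 in tho2del (adjusted p = 0.00187 and 0.00406). MKS1, a repressor of that pathway in whose absence lysine synthesis genes are active, rose by 0.41 ± 0.11 in hpr1del (adjusted p = 0.0140; 0.0501 without hpr1del replicate 3) and fell by 0.43 ± 0.12 in sub2del (adjusted p = 0.0138; 0.138 after quantile normalization). The MKS1 value in sub2del rested mainly on replicate 2, as its arrays read 682 and 500 in replicates 1 and 2. It was -0.21 without replicate 2 and -0.64 without replicate 1, each with 1 sub2del array left. In tho2del the log2 difference of MKS1 was 0.00 (adjusted p = 0.984).

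CIT2, the peroxisomal citrate synthase and a target of the retrograde pathway, separated the mutants. It read 6794, 9162 and 6522 in WT, 3610, 3327 and 3494 in hpr1del, 9501 and 8735 in sub2del, with 8732 and 9333 in tho2del. CIT2 fell in hpr1del (log2 -1.09 ± 0.12, adjusted p = 0.000235), and in sub2del and tho2del its differences were 0.30 ± 0.14 and 0.28 ± 0.14 (adjusted p = 0.0911 and 0.108). They depended on WT replicate 2. Without it they were 0.45 and 0.44 and passed (adjusted p = 0.00165 and 0.00218), and within the arrays with many empty cells, where it was the WT array, they were -0.01 and -0.02. Both also passed after quantile normalization (adjusted p = 0.0244 and 0.0236) and with array weights (0.0253 and 0.0278), and that in sub2del after subtracting array medians (0.0158). It was 2.61-fold higher in sub2del and 2.59-fold higher in tho2del than in hpr1del (adjusted p = 0.000114 and 0.000234). LYP1, the lysine permease, fell by 0.49 ± 0.07 in hpr1del (adjusted p = 0.000580) and by 0.29 ± 0.08 in sub2del (adjusted p = 0.00967; 0.0871 after quantile normalization and 0.0727 without sub2del replicate 2). In tho2del its difference was -0.08 ± 0.08 (adjusted p = 0.372).

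**Figure D4:**
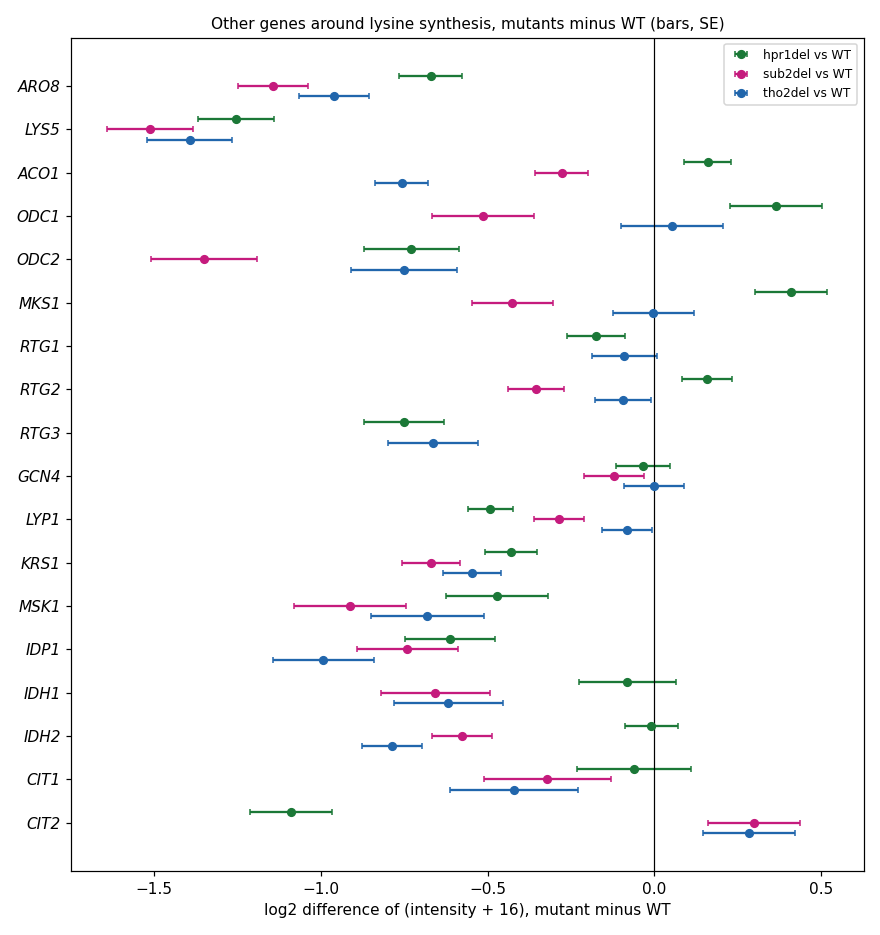
Log2 difference of (intensity + 16), mutant minus WT, with SE, for the 18 other genes around lysine synthesis. LYS5 and ARO8 lie left of 0 in all 3 mutants, GCN4 lies close to 0, and CIT2 is at -1.09 in hpr1del but right of 0 in sub2del and tho2del.

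Lists of other amino acid routes are given for scale only. In hpr1del the median of the lysine genes, -1.28, lay between those of arginine genes (-1.38, 4 of 7 tested) and histidine genes (-0.71, 4 of 6 tested), with branched-chain genes at -0.59 (10 tested). In sub2del it was -1.17 against -1.72 for arginine (3 tested), -1.23 for histidine (3 tested) and -1.01 for branched-chain genes (8 tested). In tho2del it was -1.44 against -1.20, -1.20 and -1.09 (4, 3 and 10 tested). Of the tested genes of those lists 15 of 18 fell in hpr1del, 13 of 14 in sub2del and 17 of 17 in tho2del, beside 22.8%, 40.4% and 32.6% of all probe sets. Whether the lysine genes differ from these lists was not tested. Empty WT cells were frequent in them too, with 4 of 7 arginine, 3 of 6 histidine and 4 of 10 branched-chain genes empty on WT replicate 2.

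The pattern of the 8 genes over the strains was compared with that of other genes filled on all arrays. Since only 2 of the 8 had all 10 values, the comparison used the 4 strain means of the members' average profile, where 48 of 4135 probe sets had a Pearson r of at least 0.99. The highest were DSE4, a glucanase gene of cell separation, NCR1, which encodes a vacuolar membrane protein of sterol transport, ERV1, a sulfhydryl oxidase gene of mitochondria, FLX1, a mitochondrial FAD carrier gene, and VPS30, a gene of autophagy and vacuolar sorting. Their r ran from 1.000 to 0.999. The measure leaves out size. DSE4 fell 5.60-fold, 6.41-fold and 7.03-fold in hpr1del, sub2del and tho2del, while VPS30 was 1.14-fold to 1.16-fold lower and not called (adjusted p from 0.177 to 0.185). Over the 10 arrays, which share strains, LYS12 and LYS14 had an r of 0.982 with each other, and of the 5 genes ERV1 came closest to both (0.980 and 0.995). VPS30 had 0.77 and 0.78.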

How the data were processed

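The members and gene lists were chosen with earlier results of these data known. The values were 1 intensity per probe set and array from the authors' deposited table, on a linear scale. How background, summarisation and scaling were handled, and with which software, is not given in the sources used here. Scanner files were not used, so signal over background is unknown, and precision is limited by how few arrays there were. Per the labels' protocols, biotin-labelled cRNA was hybridised.

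Groups came from sample titles. The platform annotation named 1 gene for 5498 of 5716 probe sets, and 12 old symbols were replaced by those of the R64 gene table. Coordinates are left out, since no source used here states the array's build. An offset of 16 was added and log2 taken, so changes of dim genes are understated. Linear models with a mean per strain over all 10 arrays were fitted by least squares to the whole table, with variances moderated by limma 3.58.1 in R 4.3.3. Where a cell was empty, the remaining arrays were used. The fit gave limma's own values on these data and was also run on simulated arrays. In the simulation each probe set had the same SD in all strains. The larger spread of the WT arrays was not simulated, so error rates against WT were not checked. The comparisons were each mutant with WT and the 3 pairs of mutants, with Benjamini-Hochberg adjustment over all probe sets tested.

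All 8 members are named, the 18 other pathway genes on the array are all described, and the 5 genes most alike were taken by Pearson r over the strain means. Alternatives covered the offset, normalization, dim probe sets, empty cells, arrays in the fit, weights, moderation, blocks and single arrays.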

Additional observations from a re-analysis of the deposited data

Results flagged for a closer look

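In 3 cases a lysine synthesis gene was called in the direct comparison of mutants, 1 of 8 genes in each pair. Of all probe sets tested, 37.6% were called in tho2del against hpr1del, 51.6% in sub2del against hpr1del and 20.8% in sub2del against tho2del. Each of the 3 calls was lost when some single array was left out. LYS2 differed by 0.823 (log2, sub2del minus tho2del) and by -0.519 (tho2del minus hpr1del), so that its fall from WT was largest in tho2del. LYS1 differed by -0.354 (sub2del minus hpr1del). With 2 or 3 arrays per strain, no strain was large enough for a check of single outlying arrays.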

How the results depend on the processing

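The 18 tested changes against WT (6 genes in 3 mutants) kept their direction and their call in all of the 15 to 19 alternatives that gave each of them a value, with adjusted p up to 0.0477. The comparison with WT replicate 1 alone was chosen after seeing the data, as was a rule of at least 1 WT value. That rule takes the WT spread of LYS1 and LYS20 from other strains, so no count of calls is given for it. Counts fell to 2 of 2 genes with only probe sets filled on 10 arrays (each mutant against WT), and to 2 of 2 in sub2del and tho2del with the empty-cell block or within the arrays with many empty cells, because the other genes had no value or no estimate there; within those arrays WT is 1 array, taken to vary like the mutants. Leaving out 1 array at a time left 6 of 6 in each mutant against WT, but without WT replicate 1 or 3 the genes LYS2, LYS4, LYS9 and LYS21 had 1 WT value, under the minimum of 2 and taken to vary like the other strains, so these calls say little about stability. There the lysine median ranged from -1.554 (without WT replicate 1) to -0.983 (without WT replicate 3) in hpr1del, from -1.507 to -0.844 in sub2del and from -1.731 to -1.225 in tho2del.

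Between mutants the single calls were not stable. In tho2del against hpr1del the count of 1 became 2 with quantile normalization, subtracted array medians or trended robust moderation, 3 with only the arrays compared or array weights, and 0 of 2 with filled probe sets only. In sub2del against hpr1del the count stayed 1 with subtracted array medians, where LYS20 passed in place of LYS1 (adjusted p = 0.0474 and 0.0692). It became 6 with only the arrays compared, 5 with array weights and 0 of 2 with filled probe sets. In sub2del against tho2del it became 0 of 2 with filled probe sets. Calls over all probe sets rose as well. With only the arrays compared they reached 59.6% in tho2del against hpr1del and 68.6% in sub2del against hpr1del. With array weights 2796 of 4781 were called in tho2del against hpr1del. Leaving out 1 array gave 0 in tho2del against hpr1del whichever array it was, and 0 or 1 in the other pairs. The cause was not tested where no smaller number of genes or arrays shows it.

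No clear pairing of the arrays by replicate number was seen. Same-numbered arrays of different strains deviated from their strain means with correlations from -0.214 to 0.11, and 1 of 13 pairs exceeded 0.1. In a strain of 2 arrays these deviations mirror each other, so the pairs are not independent. Whether cultures shared a day was not tested. With the replicate block 6 of 6 genes passed in each mutant against WT, 0 of 8 in tho2del against hpr1del, 0 of 8 in sub2del against hpr1del and 1 of 8 in sub2del against tho2del. Of all probe sets, 2263 of 5662, 2688 of 4799 and 2399 of 4752 then passed in hpr1del, sub2del and tho2del against WT. Between mutants, in the order above, 1365 of 4781, 2118 of 4831 and 653 of 4498 passed.

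Signs turned only for differences not called with the settings of the report. Between mutants, LYS9 in tho2del against hpr1del gave 0.024 with array weights, 0.093 with the replicate block and -0.041 to 0.037 without single arrays (0.029 without tho2del replicate 1). LYS4 there ranged from -0.003 to 0.271 and LYS14 from -0.42 to 0.041 without single arrays. In sub2del against tho2del, LYS21 gave 0.006 with array medians subtracted, and without single arrays LYS20 ranged from -0.065 to 0.294, LYS12 from -0.004 to 0.217 and LYS14 from -0.208 to 0.254. Against WT, GCN4 in hpr1del gave 0.024 with medians subtracted, 0.023 with the empty-cell block, within arrays of few empty cells and without WT replicate 2 (-0.118 without WT replicate 1), and 0.132 against WT replicate 1 alone. In sub2del it gave 0.017 with medians subtracted and 0.046 against WT replicate 1 alone. In tho2del it gave 0.036 (quantile), 0.022 (medians), -0.046 (weights), 0.013 (replicate block), -0.114 (empty-cell block and within arrays of many empty cells), 0.167 against WT replicate 1 alone, and -0.083 to 0.057 without single arrays (0.051, -0.051 and 0.026 among them). In hpr1del IDH2 gave 0.046 (quantile), 0.049 (medians), 0.016 (weights), 0.059 (empty-cell block and within arrays of few empty cells), 0.069 against WT replicate 1 alone and -0.048 to 0.059 without single arrays. IDH1 gave 0.098 (weights) and -0.175 to 0.096 without single arrays, and CIT1 0.137 (weights) and -0.204 to 0.174. In tho2del ODC1 gave -0.022 (replicate block), -0.18 (empty-cell block and within arrays of many empty cells) and -0.066 to 0.169 without single arrays, and RTG1 0.045 against WT replicate 1 alone. VPS30 gave 0.051, 0.041 and 0.033 in hpr1del, sub2del and tho2del against WT replicate 1 alone. With the empty-cell block and within arrays of many empty cells CIT2 gave -0.008 in sub2del and -0.021 in tho2del. In tho2del LYP1 gave 0.013 (quantile) and -0.171 to 0.005 without single arrays, and MKS1 0.018 (medians), 0.016 (weights), 0.001 (replicate block), 0.083 (empty-cell block and within arrays of many empty cells), and -0.047 to 0.047 without single arrays (0.025 without tho2del replicate 1).

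Of all probe sets, the number called moved by over 1.5 times between mutants alone. In tho2del against hpr1del 1799 became 2849 with only the arrays compared, 2796 with array weights and 1104 with the empty-cell block, and 1009 to 1097 without a tho2del array. In sub2del against tho2del 936 became 1540 with array weights and 369 to 521 without 1 array.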
